A study of Mus musculus with 40 samples.

Results

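Genes of thyroid hormone transport and intracellular binding, 7 in all, were described in 5 brain regions of mice carrying either form of the type 2 deiodinase. They were Slco1c1, Slco1a4, Slc16a10, Slc7a5, Slc7a8, Slc3a2 and Crym, chosen by gene symbol from the platform annotation, with the row of highest mean signal kept for each gene. All 7 members were found among 19505 named genes, each had 1 row, and all 7 were among the 14978 genes that entered the tests, Slc16a10 only through the regions where it was high. The arrays came from amygdala, cerebellum, hippocampus, prefrontal cortex and striatum of mice aged 8 to 10 weeks, kept at 22 °C on chow, on the background strain labelled C56BL/6. Mice labelled Ala92D2HY had alanine at residue 92 of the enzyme encoded by Dio2 and mice labelled Thr92D2HY had threonine, and the labels do not spell out the ending of these names. They are called Ala and Thr here, with 4 arrays per genotype in every region and 40 in all. No label names the animal behind an array, so the p-values reflect differences among arrays that may be technical rather than between animals. Arrays of different regions may share animals, and the 40 arrays were treated as independent in all standard errors, intervals and p-values, those of the region comparisons and averages included. Values are RMA signals on the log2 scale (RMA corrects background, normalizes arrays and summarizes probes), so a difference of 1 is a doubling of signal, and levels of different genes are not compared because each gene has its own probes.

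Thyroid hormone does not cross membranes freely and enters brain cells through carrier proteins. The prohormone thyroxine is taken up at the blood-brain barrier and by glia, where the deiodinase encoded by Dio2 converts it to triiodothyronine, which neurons then take up through carriers of their own. In rodents Slco1c1 encodes Oatp1c1, a thyroxine carrier of brain capillaries, astrocytes and choroid plexus. Slco1a4 encodes Oatp1a4, a carrier of organic anions of broad range at the same barrier. Slc16a10 encodes Mct10, a carrier of aromatic amino acids and thyroid hormone. Slc7a5 and Slc7a8 encode Lat1 and Lat2, transporters of large neutral amino acids that also carry thyroid hormone, and both work only as heterodimers with the glycoprotein heavy chain encoded by Slc3a2. Crym encodes mu-crystallin, a cytosolic protein that binds triiodothyronine.

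Array quality and dissection set the frame for these values. Array medians lay between 6.12 and 6.32. The negative control rows had medians from 5.73 to 6.35, and a signal in or below that range is close to background. Markers listed for the labelled tissue were highest in their own region for 7 of 7 cerebellar, 6 of 6 striatal, 6 of 7 hippocampal, 5 of 7 amygdalar and, in prefrontal cortex, 5 of 7 neocortical genes. The lists were chosen with earlier results of these data known, so these counts are no independent check of the labels. On 5 arrays, markers of another tissue exceeded their regional average by at least 2 log2 units. Ala amygdala 1 had high striatal markers (2.71 above) and cerebellar markers (2.41 above), Ala hippocampus 17 and Ala striatum 36 had high choroid plexus markers (2.06 and 2.73 above), Thr hippocampus 23 had high thalamic markers (2.03 above) and Thr striatum 40 had high liver markers (2.72 above). Member results that changed call or sign without these arrays are given both ways. The rule compares each array with its own region and does not show tissue that a whole region shares. Olfactory bulb markers had a median of 8.96 in prefrontal cortex (6.97 to 10.37), against medians from 4.46 to 5.46 in the other regions. Their part in the prefrontal values was not tested. In bulk tissue, fewer cells of a type and less RNA per cell cannot be told apart.

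The comparison between regions asked where in the brain each carrier was high or low. All 7 members differed between regions by limma's moderated F-test at an adjusted p under 0.05, against 68.8% of all tested genes. The count includes Slc16a10, which entered the tests through the regions where it was high, and was 6 of 6 without it. Over the 10 pairs of regions, 38 of 70 differences were called, against 36.5% of all gene and pair combinations. Pairs that include striatum held 24 of 28 calls, 6 of 7 members in each of the 4 comparisons. The background there was 37.4% against amygdala, 54.0% against cerebellum, 34.8% against hippocampus and 33.9% against prefrontal cortex. In each of the 4 comparisons the same 4 members were lower in striatum (Slc16a10, Slc7a5, Slc7a8 and Slc3a2), against 18.8%, 28.0%, 17.9% and 17.6% of all genes in that order of regions. In each, 2 members were higher in striatum, against 18.7%, 26.0%, 16.8% and 16.3%: Slco1c1 in all 4, Slco1a4 against amygdala and hippocampus, and Crym against cerebellum and prefrontal cortex. Without Slc16a10, whose signal lay in or under the negative control range on all arrays, the counts were 29 of 60 pairs in all and 20 of 24 pairs with striatum, with 3 members lower in striatum in all 4 comparisons. Cerebellum differed from amygdala for 3 members (background 53.2%), from hippocampus for 3 (background 50.0%) and from prefrontal cortex for 4 (background 50.1%). Among amygdala, hippocampus and prefrontal cortex, 4 of 21 differences were called: 1 between amygdala and hippocampus (background 16.2%), 1 between amygdala and prefrontal cortex (background 15.5%) and 2 between hippocampus and prefrontal cortex (background 19.5%). Without the 5 arrays with high markers of another tissue, 32 of 70 pairs were called.

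**Figure D1:**
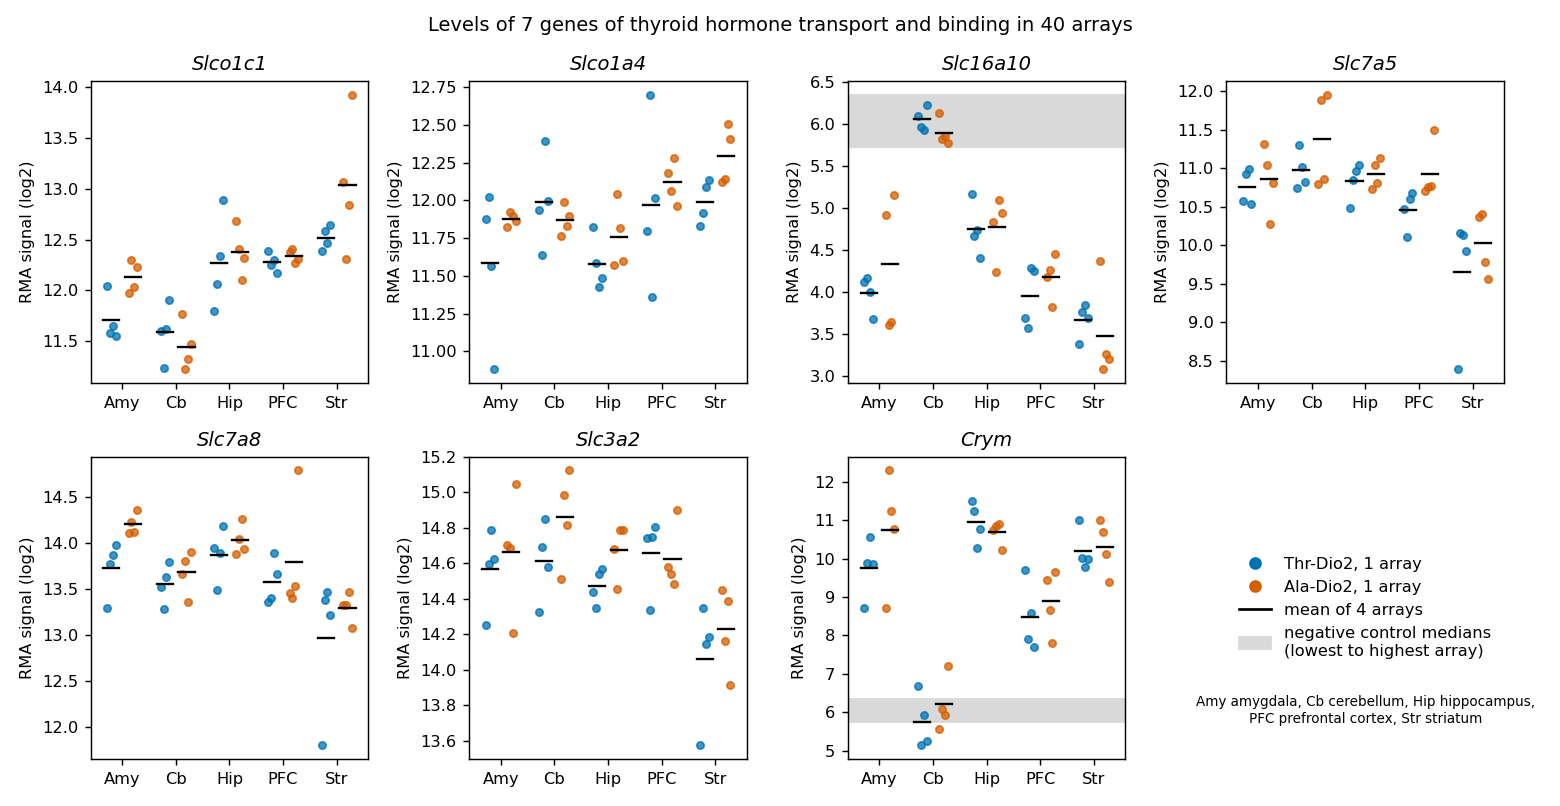
Signal of each of the 7 genes on every array (vertical axis, log2 RMA signal, with its own scale in each panel) by region (horizontal axis), blue for Thr and orange for Ala, with black lines at the means of 4 arrays. The grey band spans the negative control medians of the 40 arrays (5.73 to 6.35); Slc16a10 lies in or under it on all arrays, Crym comes near it only in cerebellum, and Thr striatum 37 is the lowest point for Slc7a5 (8.39), Slc7a8 (11.80) and Slc3a2 (13.58).

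Slco1c1, the thyroxine carrier, was highest in striatum and lowest in cerebellum. Its signal over 8 arrays ran from 12.31 to 13.93 in striatum (median 12.61), from 11.80 to 12.89 in hippocampus (median 12.33) and from 12.17 to 12.41 in prefrontal cortex (median 12.31). It ran from 11.55 to 12.30 in amygdala (median 12.00) and from 11.22 to 11.91 in cerebellum (median 11.54). The striatal arrays overlapped neither the cerebellar nor the amygdalar ones, and they overlapped those of hippocampus and prefrontal cortex. Striatum exceeded cerebellum by 1.26 ± 0.15 (SE, adjusted p = 2.4e-09) and amygdala by 0.86 ± 0.15 (adjusted p = 1.18e-05). Hippocampus and prefrontal cortex were level with each other (difference 0.01, 95% interval -0.29 to 0.32), and both lay above cerebellum, by 0.81 ± 0.15 and 0.79 ± 0.15. Amygdala also exceeded cerebellum, by 0.40 ± 0.15 (adjusted p = 0.024), a call lost without Thr amygdala 5, Ala cerebellum 10 or Thr cerebellum 14 (0.35, 0.36 and 0.34). Amygdala did not differ from hippocampus or prefrontal cortex past the threshold (adjusted p = 0.062 and 0.0756), but both differences, -0.41 and -0.39, did so without Ala striatum 36 (adjusted p = 0.0219 and 0.0298), as they did without Thr amygdala 5 or Ala striatum 34, and the first also without Ala hippocampus 19 or Thr hippocampus 21.

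The lead of striatum over hippocampus and prefrontal cortex in Slco1c1 was smaller, at 0.45 ± 0.15 (adjusted p = 0.0173) and 0.47 ± 0.15 (adjusted p = 0.014). Ala striatum 36, the array with the highest choroid plexus markers of its region, had the highest Slco1c1 signal of all arrays at 13.93. Without it these differences were 0.30 (adjusted p = 0.0775) and 0.32 (adjusted p = 0.064), and the first was also lost without Thr hippocampus 21 (0.37, adjusted p = 0.0582). With the choroid plexus score of each array as a covariate, chosen after seeing the data, both were called at 0.45 and 0.47 (adjusted p = 0.00226 and 0.00169), and that score was centred on regions, so that it could not alter a difference between regions. Without the 5 arrays with high markers of another tissue they were 0.34 (adjusted p = 0.0845) and 0.30 (adjusted p = 0.112). The lead over cerebellum and amygdala was called without the 5 arrays as well, at 1.09 (adjusted p = 3.31e-08) and 0.66 (adjusted p = 0.00041). Endothelial markers moved the same way in these comparisons. Of 15, 14 were higher in striatum than in amygdala, 8 of them called, against 18.7% of all genes. Against cerebellum, 13 of 15 were higher in striatum, 6 of them called, against 26.0% of all genes. All 10 choroid plexus markers were higher in striatum than in amygdala, 7 of them called, against the same 18.7% of all genes. Their highest median was in cerebellum, however, at 8.36 against 7.40 in striatum, while Slco1c1 was lowest in cerebellum. Endothelial markers had a higher median in cerebellum (8.71) than in prefrontal cortex (8.65), hippocampus (8.54) or amygdala (8.52), unlike Slco1c1. Astrocyte markers had their highest median in cerebellum (13.12) and their lowest in striatum (12.03), the reverse of Slco1c1. The part of these tissues and cell types in the result was not tested.

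Slco1a4, the second barrier carrier, had the smallest span of region means, 0.47 against 0.59 for Slc3a2, although its single arrays spanned more (1.82 against 1.55). Its signal ran from 11.83 to 12.51 in striatum (median 12.13), from 11.36 to 12.70 in prefrontal cortex (median 12.04) and from 11.64 to 12.39 in cerebellum (median 11.92). It ran from 10.88 to 12.02 in amygdala (median 11.87) and from 11.42 to 12.04 in hippocampus (median 11.59). All 5 regions overlapped, and no neighbours in this order of means differed past the threshold. Prefrontal cortex exceeded hippocampus by 0.38 ± 0.14, short of the threshold with all arrays (adjusted p = 0.0598) and past it without Thr prefrontal cortex 31 (0.48, adjusted p = 0.0111) and, at 0.38 to 0.42, without Thr amygdala 8, Ala hippocampus 18 or Thr hippocampus 21. Prefrontal cortex also passed against amygdala without Thr prefrontal cortex 31 (0.42, adjusted p = 0.0375). Striatum exceeded hippocampus by 0.47 ± 0.14 (adjusted p = 0.00795) and amygdala by 0.41 ± 0.14 (adjusted p = 0.0203). The lead over amygdala fell to 0.29 without Thr amygdala 8, the lowest array for this gene at 10.88 (adjusted p = 0.0871). Without the 5 arrays neither difference was called (0.38 and 0.36, adjusted p = 0.102 and 0.0931), nor was the F-test over regions (adjusted p = 0.128 against 0.0136 with all arrays).

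Slc16a10 was highest in cerebellum, at a level within the range of the negative controls. Its signal ran from 5.78 to 6.23 in cerebellum (median 5.95), from 4.24 to 5.17 in hippocampus (median 4.79) and from 3.60 to 5.16 in amygdala (median 4.06). It ran from 3.57 to 4.46 in prefrontal cortex (median 4.21) and from 3.07 to 4.37 in striatum (median 3.54). No cerebellar array overlapped any array of another region. The gene lay above the filter of log2 4.60 on 16 arrays and entered the tests through cerebellum and hippocampus, so its calls between these regions and the others were favoured by the filter. Cerebellum exceeded hippocampus by 1.22 ± 0.19 (adjusted p = 1.2e-06) and striatum by 2.41 ± 0.19 (adjusted p = 5.46e-14). These sizes are differences of signals at or under background and are not to be read as folds of transcript. Hippocampus exceeded amygdala by 0.60 ± 0.19 (adjusted p = 0.0271), and the call ended without Ala amygdala 2 or 3, Thr amygdala 8, Ala hippocampus 19 or 20, or Thr hippocampus 21, with differences from 0.48 to 0.57. Amygdala exceeded striatum by 0.59 ± 0.19 (adjusted p = 0.0147), and by 0.45 without Ala amygdala 4 (adjusted p = 0.0599). The difference between prefrontal cortex and striatum, 0.49 ± 0.19 (adjusted p = 0.0464), was lost in 19 of 40 fits that left out 1 array, with median centring and with no filter. Those arrays were Ala prefrontal cortex 25, 26 and 28, Thr prefrontal cortex 31 and 32, Ala striatum 34, 35 and 36, Thr striatum 37, 38 and 40, and 8 arrays of other regions, and over all 40 fits the difference ran from 0.43 to 0.64. Without the 5 arrays the leads of amygdala and prefrontal cortex over striatum were both 0.45 (adjusted p = 0.116 and 0.111).

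The genes of the Lat heterodimers, Slc7a5, Slc7a8 and Slc3a2, shared the position of striatum at the bottom of their order. Neuron markers were also lowest there: the mean level of the 8 markers had a median of 14.01 over the striatal arrays (13.37 to 14.12), against medians from 14.39 to 14.57 in the other regions. From 5 to 7 of the 8 were lower in striatum than in each other region, 4 of them called each time, while 0 to 2 were called higher in striatum. Of all genes, 17.6% to 28.0% were called lower in striatum in these comparisons and 16.3% to 26.0% higher. Oligodendrocyte markers were highest in striatum, with a median of 13.14 (12.77 to 13.67) against 9.76 to 12.00 elsewhere, and all 9 were called higher there than in each other region. Astrocyte (12.03) and meningeal (6.61) markers also had their lowest medians in striatum. Endothelial (8.83), mural (7.87) and microglia (8.15) markers had their highest medians there. The part of these cell types in the results for the heterodimer genes was not tested. The 250 bases before the RefSeq start sites of Slc7a8 and Slc3a2 are shown because these genes moved together across arrays. They come from the RefSeq promoter table on GRCm38.p6, which matched 5 of the 7 members, and run 5′ to 3′ on the minus strand at chr14:54781887-54782136 and chr19:8713898-8714147. Capitals mark matches to the GC box GGGCGG on either strand.
Slc7a8: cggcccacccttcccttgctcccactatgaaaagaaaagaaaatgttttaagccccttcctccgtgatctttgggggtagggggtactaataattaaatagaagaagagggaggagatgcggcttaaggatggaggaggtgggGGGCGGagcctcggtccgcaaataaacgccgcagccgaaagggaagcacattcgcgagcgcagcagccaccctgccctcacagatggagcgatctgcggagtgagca
Slc3a2: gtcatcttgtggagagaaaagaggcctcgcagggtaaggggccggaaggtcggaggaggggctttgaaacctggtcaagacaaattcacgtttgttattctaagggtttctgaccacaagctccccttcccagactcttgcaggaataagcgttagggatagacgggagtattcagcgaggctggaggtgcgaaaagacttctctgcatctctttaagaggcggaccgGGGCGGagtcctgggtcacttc
Each of these promoters held 1 GC box, starting 107 bases before the Slc7a8 start site and 22 bases before that of Slc3a2, and 32.7% of 32851 promoters of this length held at least 1. None of the 5 matched promoters, which include those of Slco1c1, Slco1a4 and Slc16a10, held the thyroid hormone receptor hexamer AGGTCA (in 14.0% of all promoters), its direct repeat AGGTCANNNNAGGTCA (in 0.015%) or the amino acid response letters TGATGNAA (in 3.45%), on either strand, and a direct repeat would also count as a hexamer. CCAAT, present in 33.9% of promoters, occurred once in Slco1c1, 2 times in Slco1a4 and 2 times in Slc16a10, where GGGCGG occurred 3 times. A match is a run of letters and not a measured binding site.

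Slc7a5, the light chain Lat1, ran from 8.39 to 10.41 in striatum (median 10.03) and from 10.74 to 11.95 in cerebellum (median 10.94). It ran from 10.48 to 11.13 in hippocampus (median 10.91), from 10.28 to 11.31 in amygdala (median 10.86) and from 10.11 to 11.50 in prefrontal cortex (median 10.69). The striatal arrays overlapped neither the cerebellar nor the hippocampal ones. Striatum was lower than cerebellum by 1.33 ± 0.20 (adjusted p = 4.5e-07), hippocampus by 1.04 ± 0.20 (adjusted p = 6.21e-05), amygdala by 0.96 ± 0.20 (adjusted p = 0.00017) and prefrontal cortex by 0.85 ± 0.20 (adjusted p = 0.000853). The array Thr striatum 37 held the lowest value, and without it these differences were 1.12, 0.83, 0.75 and 0.64, each still called. Cerebellum exceeded prefrontal cortex by 0.48 ± 0.20 (adjusted p = 0.0484), a call lost in 26 of 40 fits that left out 1 array, and lost with quantile normalization, with no filter and with no variance trend. Those arrays were Ala cerebellum 10 and 12, Thr cerebellum 14, 15 and 16, Ala prefrontal cortex 25, 26 and 27, Thr prefrontal cortex 29, 30 and 31, and 15 arrays of other regions, and over all 40 fits the difference ran from 0.38 to 0.57. The other neighbours did not differ past the threshold: cerebellum minus hippocampus was 0.29 (95% interval -0.12 to 0.70) and amygdala minus prefrontal cortex was 0.11 (-0.30 to 0.52).

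Slc7a8, the light chain Lat2, ran from 11.80 to 13.47 in striatum (median 13.33) and from 13.48 to 14.26 in hippocampus (median 13.94). It ran from 13.30 to 14.36 in amygdala (median 14.04), from 13.36 to 14.78 in prefrontal cortex (median 13.49) and from 13.28 to 13.90 in cerebellum (median 13.64). Only the hippocampal arrays stood clear of the striatal ones. Striatum was lower than amygdala by 0.83 ± 0.18 (adjusted p = 0.000203), hippocampus by 0.82 ± 0.18 (adjusted p = 0.000279), prefrontal cortex by 0.55 ± 0.18 (adjusted p = 0.0132) and cerebellum by 0.48 ± 0.18 (adjusted p = 0.0204). Without Thr striatum 37 the last 2 differences were 0.36 (adjusted p = 0.0584) and 0.29 (adjusted p = 0.101), and the prefrontal one was also lost without Ala prefrontal cortex 28 (0.39, adjusted p = 0.0622). With array weights both fell short as well (0.42 and 0.33, adjusted p = 0.0537 and 0.0793). The other 4 regions did not differ from one another past the threshold, and the widest gap among them, amygdala minus cerebellum, was 0.35 (95% interval -0.01 to 0.71). That gap was called without Thr striatum 37 (adjusted p = 0.0374).

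Slc3a2, the heavy chain, ran from 13.58 to 14.45 in striatum (median 14.17) and from 14.33 to 15.12 in cerebellum (median 14.76). It ran from 14.34 to 14.90 in prefrontal cortex (median 14.66), from 14.21 to 15.05 in amygdala (median 14.66) and from 14.35 to 14.79 in hippocampus (median 14.56). Every region overlapped striatum by at least 1 array. Striatum was lower than cerebellum by 0.59 ± 0.12 (adjusted p = 6.88e-05), prefrontal cortex by 0.50 ± 0.12 (adjusted p = 0.00114), amygdala by 0.47 ± 0.12 (adjusted p = 0.00195) and hippocampus by 0.43 ± 0.12 (adjusted p = 0.00461). Those 4 calls held in each of the 40 fits that left out 1 array. The other 4 regions did not differ past the threshold, with intervals reaching at most 0.41 on the log2 scale between cerebellum and hippocampus.

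Crym, the cytosolic triiodothyronine binder, had the widest range. Its signal ran from 10.24 to 11.51 in hippocampus (median 10.82), from 8.71 to 12.30 in amygdala (median 10.23) and from 9.39 to 11.01 in striatum (median 10.06). It ran from 7.71 to 9.70 in prefrontal cortex (median 8.63) and from 5.14 to 7.21 in cerebellum (median 5.93). No cerebellar array overlapped an array of another region, and no prefrontal array overlapped a hippocampal one. Cerebellum was lower than hippocampus by 4.85 ± 0.36 (adjusted p = 5.22e-15), than amygdala and striatum by 4.28 ± 0.36 each (adjusted p = 1.88e-13 and 1.86e-13) and than prefrontal cortex by 2.71 ± 0.36 (adjusted p = 2.86e-08). Of the 8 cerebellar values, 3 lay within the range of the negative control medians, 3 below it and 2 above it, so the sizes of these differences are not to be read as folds of transcript. Prefrontal cortex was lower than hippocampus by 2.14 ± 0.36 (adjusted p = 1.28e-05), amygdala by 1.58 ± 0.36 (adjusted p = 0.00145) and striatum by 1.57 ± 0.36 (adjusted p = 0.000553). Hippocampus, amygdala and striatum did not differ past the threshold, with hippocampus minus amygdala at 0.56 (95% interval -0.17 to 1.29). The amygdalar arrays had the widest spread of any region for this gene (SD 1.23, n = 8), and the lowest was Ala amygdala 1, the array with high striatal and cerebellar markers.

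The comparison between genotypes asked whether residue 92 of the deiodinase changed the expression of the carriers. None of the 7 members was called. In amygdala 0 of 7 passed against 0.120% of all genes, in striatum 0 of 7 against 0.0801%, and in cerebellum, hippocampus and prefrontal cortex 0 of 7 against 0%. In the average of the 5 regions 0 of 7 passed against 0.0200%, and in the F-test for a genotype difference that varies between regions 0 of 7 against 0.0401%. At an unadjusted p under 0.05 by limma, 1 member difference was reached in striatum (Slco1c1), 2 in the average (Slc7a5 and Slc7a8) and 0 in the other comparisons. These shares leave little room for any gene to be called, so the counts say little about the members.

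Averaged over regions, the Ala minus Thr difference was positive for 7 of 7 members, with a median of 0.19, against 52.8% of all tested genes and a median of 0.00651. Slc7a5 differed by 0.29 ± 0.13 (95% interval 0.03 to 0.55, adjusted p = 0.877) and Slc7a8 by 0.26 ± 0.11 (0.03 to 0.49, adjusted p = 0.866). When 1 array was left out, these averages ran from 0.20 to 0.33 and from 0.18 to 0.29. Both were lowest without Thr striatum 37. Slc3a2 differed by 0.14 ± 0.08, Slco1c1 by 0.19 ± 0.10, Slco1a4 by 0.16 ± 0.09, Slc16a10 by 0.05 ± 0.12 and Crym by 0.34 ± 0.23. With 1 array left out, the average of Slco1c1 ran from 0.13 (without Ala striatum 36) to 0.24. The sign of Slc16a10 turned without Ala amygdala 4 or Ala striatum 33 (-0.01 in both cases). Of 35 differences within a region, 29 were positive, from -0.26 for Crym in hippocampus to 0.99 for Crym in amygdala. The members are not independent of one another, since Slc7a5, Slc7a8 and Slc3a2 moved together from array to array as described further on. The median over the members was 0.34 in amygdala, 0.31 in striatum, 0.21 in prefrontal cortex, 0.12 in cerebellum and 0.10 in hippocampus, against medians over all genes from 0.00336 to 0.0225.

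**Figure D2:**
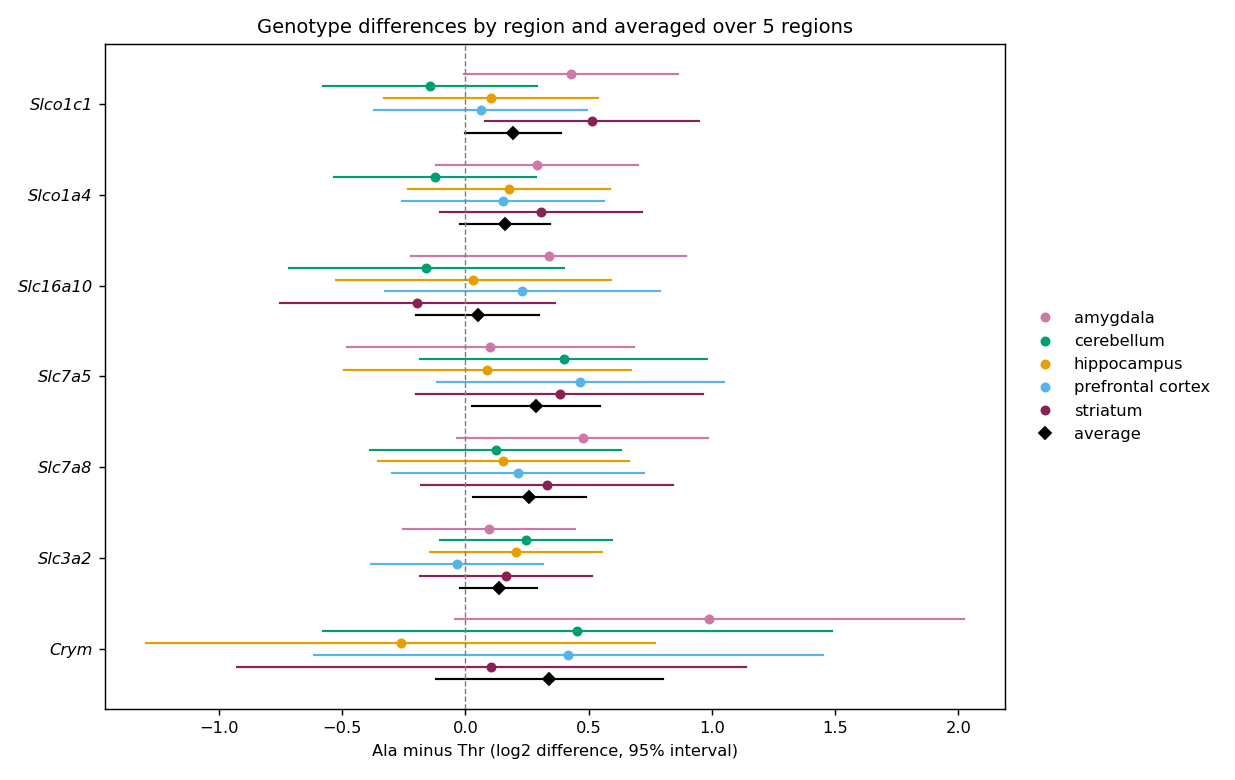
Ala minus Thr difference (horizontal axis, log2) of each of the 7 genes in each region (coloured points) and averaged over the 5 regions (black diamonds), with 95% intervals of the limma fit. The 7 averages lie between 0.05 (Slc16a10) and 0.34 (Crym), and Crym has the widest intervals; no difference passed the adjusted threshold.

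For Slco1c1, the Ala striatal arrays read 13.07, 12.31, 12.84 and 13.93, and the Thr striatal arrays 12.39, 12.58, 12.47 and 12.64. Of the Ala arrays, 3 lay above all Thr arrays and 1 lay below them, so the groups overlapped. The difference was 0.51 ± 0.21 (95% interval 0.08 to 0.95, adjusted p = 0.738), the smallest adjusted p of any member and region. The mean level of the choroid plexus markers ran from 7.65 to 10.53 on the Ala striatal arrays and from 6.26 to 7.15 on the Thr ones, without overlap, and that of the endothelial markers from 8.79 to 9.09 and from 8.67 to 8.87. Without Ala striatum 36 the difference was 0.22, without the 5 arrays 0.26, and it was 0.06 once the choroid plexus score entered the model. That covariate was chosen after seeing the data and had a single slope for all regions. Because its markers did not overlap between the genotypes in striatum, choroid plexus content and genotype cannot be told apart there. In amygdala Slco1c1 read 11.97, 12.30, 12.03 and 12.23 in Ala and 12.04, 11.58, 11.65 and 11.55 in Thr, a difference of 0.43 ± 0.21 (adjusted p = 0.935). A single Thr array, at 12.04, lay within the Ala range.

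Slc7a8 in amygdala was one of a pair of cases in which the genotypes did not overlap. The Ala arrays read 14.11, 14.23, 14.12 and 14.36, and the Thr arrays 13.30, 13.77, 13.87 and 13.97. All Ala arrays lay above all Thr arrays, as in one direction or the other for 3.19% of tested genes in amygdala. The difference was 0.48 ± 0.25 (95% interval -0.03 to 0.99, adjusted p = 0.94). The mean level of the amygdala markers also did not overlap between the genotypes there. It ran from 9.47 to 10.40 on the Ala and from 10.47 to 11.08 on the Thr amygdalar arrays. That list includes Gpx3, whose own genotype difference varied between regions (adjusted p = 0.0232 by the F-test). The part of dissection in the amygdalar differences of Slc7a8, Slco1c1 and Crym was not tested. In prefrontal cortex Slc7a8 read 13.46, 13.40, 13.53 and 14.78 in Ala and 13.36, 13.41, 13.89 and 13.66 in Thr, and its difference turned from 0.21 to -0.12 without Ala prefrontal cortex 28. In striatum it read 13.32, 13.33, 13.46 and 13.07 in Ala and 11.80, 13.38, 13.47 and 13.21 in Thr, and its difference turned from 0.33 to -0.06 without Thr striatum 37.

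Slc7a5 in prefrontal cortex was the other case. The Ala arrays read 10.70, 10.75, 10.76 and 11.50, and the Thr arrays 10.47, 10.11, 10.60 and 10.67. The ranges did not overlap, as for 1.66% of tested genes there. In cerebellum, hippocampus and striatum 0 members had separate ranges, against 2.66%, 2.73% and 1.98% of tested genes. The difference was 0.47 ± 0.29 (95% interval -0.12 to 1.05, adjusted p = 1.00). In striatum Slc7a5 read 10.37, 10.41, 9.79 and 9.57 in Ala and 8.39, 10.16, 10.13 and 9.92 in Thr. The groups overlapped, and the difference turned from 0.38 to -0.04 without Thr striatum 37.

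Crym in amygdala had the largest difference of any member in any region with all arrays in the fit. The Ala arrays read 8.71, 12.30, 11.24 and 10.78, and the Thr arrays 8.73, 9.90, 10.57 and 9.87. Of the Ala arrays, 3 lay above all Thr arrays, and Ala amygdala 1 lay below them. The difference was 0.99 ± 0.51 (95% interval -0.04 to 2.02, adjusted p = 0.936). It was 1.67 without Ala amygdala 1, the array with high striatal and cerebellar markers, and 0.48 without Ala amygdala 2, and neither was called. For Slc3a2 the difference in cerebellum was 0.25 ± 0.17, and it ran from 0.15 to 0.36 when 1 array was left out. For Slco1a4 in striatum it was 0.31 ± 0.20, running from 0.23 to 0.36. For Slc16a10 in amygdala it was 0.34 ± 0.28, and it fell to 0.06 without Ala amygdala 4 and rose to 0.58 without Ala amygdala 2. The groups overlapped in these 3 cases, and the order of the regions within a gene is not fixed at this spread. Before adjustment, the 95% intervals of the averages reached up to 0.55 for Slc7a5, 0.49 for Slc7a8, 0.39 for Slco1c1 and 0.34 for Slco1a4. Those of Slc16a10, Slc3a2 and Crym reached up to 0.30, 0.29 and 0.80. All arrays were taken as independent here, and if arrays share animals these intervals may be too narrow.

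How the members varied among arrays of one group was described with deviations from the means of the 10 groups. Over 40 arrays and 84 relations (21 between members and 63 between a member and a tissue score, the mean deviation of a marker list), 3 were called at an adjusted p under 0.05. How often other pairs of genes reach such values was not tested. Slc7a5 and Slc3a2, a light chain and its heavy chain, rose and fell together with r = 0.730 and rho = 0.687 (permutation p = 9e-05 and 0.00022, adjusted p = 0.00378 and 0.00924). Within regions r was 0.60 in amygdala, 0.79 in cerebellum, 0.13 in hippocampus, 0.93 in prefrontal cortex and 0.84 in striatum, each over 8 arrays. Without the 2 arrays farthest from the median of Slc7a5, r was 0.634, with an adjusted permutation p of 0.055. Leaving out 1 array at a time gave r from 0.675 (without Thr striatum 37) to 0.771.

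Slc7a8 and Slc3a2 were also related, with r = 0.634 and rho = 0.683 (permutation p = 0.0002 and 6e-05, adjusted p = 0.0056 and 0.00504). The deviations of Slc7a8 had a higher r with Mapk10 (0.769), Slc6a17 (0.767) and Ccng1 (0.653), which are named further on. For Slc7a8 and Slc3a2,  the values by region follow. Within regions r was 0.70 in amygdala, 0.27 in cerebellum, 0.47 in hippocampus, 0.72 in prefrontal cortex and 0.86 in striatum. Without Thr striatum 37 r was 0.552, the lowest value when 1 array was left out. Without the 2 farthest arrays r was 0.533, with an adjusted permutation p of 0.0907. The 2 light chains, Slc7a5 and Slc7a8, had r = 0.656 and rho = 0.515, which did not pass (adjusted permutation p = 0.0895 and 0.111). Against the neuron score, r was 0.292 for Slc7a5, 0.231 for Slc7a8 and 0.136 for Slc3a2 (adjusted permutation p = 0.898 for each). Thr striatum 37 deviated downward in all 3 genes of the heterodimers. This array also had the lowest neuron markers of the striatal arrays (0.55 below the regional mean) and the lowest neocortical markers (0.93 below), and 3.24% of tested genes had it as their outlying array by Dixon's criterion, the highest share of the 40 arrays (median 1.21%). The part of these differences in the relations was not tested.

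Slco1c1 followed the choroid plexus score, with r = 0.714 and rho = 0.648 (permutation p = 2e-05 and 0.00044, adjusted p = 0.00168 and 0.0123). Within regions r was 0.88 in hippocampus, 0.89 in striatum, 0.64 in cerebellum, 0.32 in amygdala and 0.26 in prefrontal cortex. Without the 2 arrays farthest on the score r was 0.667 (adjusted permutation p = 0.055), and over the 35 arrays without high markers of another tissue r was 0.680. Against the endothelial score, r was 0.153 for Slco1c1 and 0.228 for Slco1a4 (adjusted permutation p = 0.898 for both). Slco1c1 and Slco1a4 lie on chromosome 6 with 2 coding genes, Slco1b2 and Gm5724, between them in GRCm38.p6, and their deviations had r = 0.0499 (adjusted permutation p = 0.983). Crym was related to no other member and to none of the 9 scores at this threshold, and neither was Slc16a10.

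**Figure D3:**
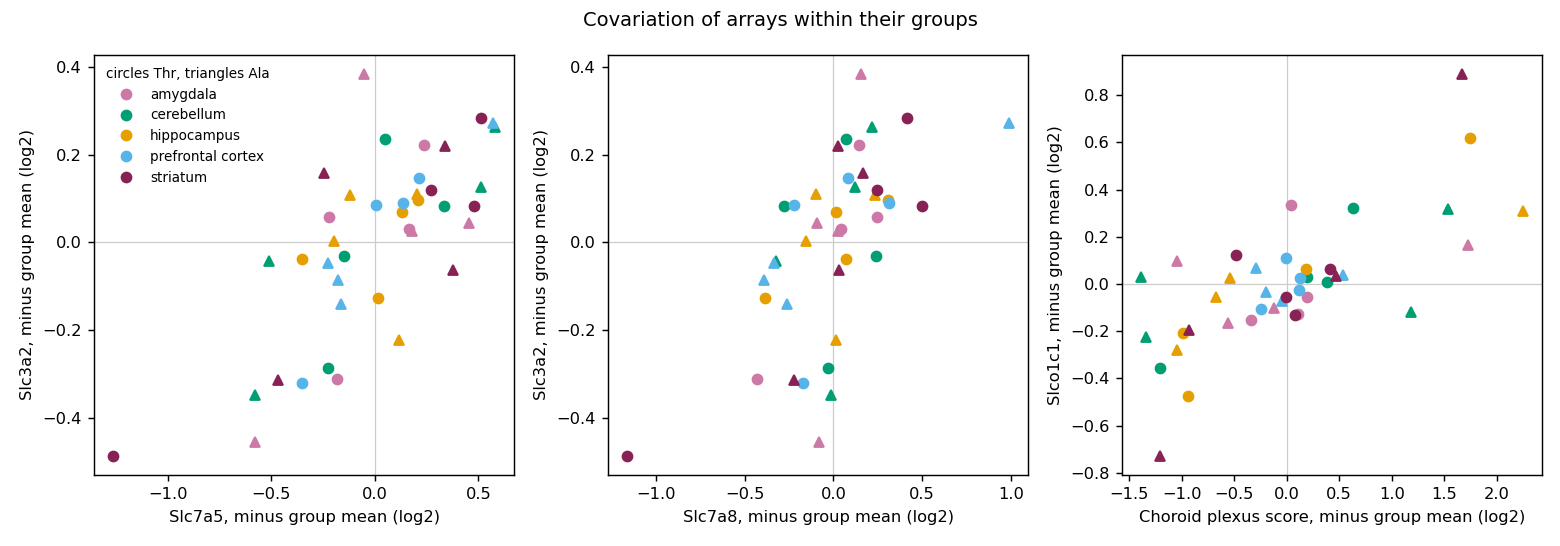
Deviations of single arrays from their group mean (log2, both axes) for Slc7a5 and Slc3a2, for Slc7a8 and Slc3a2, and for the choroid plexus score and Slco1c1, with circles for Thr, triangles for Ala and colours for regions. The 3 panels have r of 0.730, 0.634 and 0.714 over 40 arrays, and Thr striatum 37 is the point at the lower left of the first and second panels.

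The genes whose pattern was most like that of a member over the 40 arrays were named by Pearson's r, as a description that rests on regional and array differences together. The gene most like Slc7a5 was Slc3a2 (r = 0.838), and the gene most like Slc3a2 was Slc7a5, among all tested genes; the next for Slc3a2 were Golga7b and Rabl2. Slc7a8 was most like Mapk10 (r = 0.846), Slc6a17 and Ccng1, and these relations were also high in deviations from group means (0.769, 0.767 and 0.653). Slco1c1 was most like Ezr, which encodes the membrane linker ezrin (r = 0.848, and 0.645 in deviations), followed by Lrrc8b and Atp2b1. Slc16a10 was most like Adcy1, an adenylate cyclase (r = 0.919), and Crym was most like Myo5b, an unconventional myosin (r = 0.933), followed by Tenm2 and Cdh9. For Slco1a4 the highest value was lower, 0.653 with Psip1. Slc16a10 and Crym ran opposite to each other over arrays (r = -0.650), the former highest and the latter lowest in cerebellum. In deviations from group means their r was -0.214 (adjusted permutation p = 0.898). The values of r for Slc16a10 rest on signals in or under the negative control range, and the cerebellar Crym signals were near that range as well.

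Other genes of hormone transport were counted for context. Of 10 further transporters on the array, 7 were tested, 4 differed between regions (against 68.8% of all genes) and 0 differed between genotypes in the average (against 0.0200%), with a median difference of 0.08. Of these 7, only Slco3a1 had region means above the negative control range of 5.73 to 6.35. The counts thus rest largely on signals near background. Slco3a1, an organic anion carrier, had 11.69 ± 0.24 (SD, n = 8) in cerebellum and 9.31 ± 0.51 in prefrontal cortex, and its average genotype difference was -0.26 ± 0.11 (adjusted p = 0.866). Of the carriers in plasma and cerebrospinal fluid, Ttr and Alb were tested and both differed between regions, and Ttr, also a choroid plexus marker, differed by 0.54 ± 0.88 between genotypes in the average (adjusted p = 1.00). Alb, which encodes albumin and is also a liver marker, was lower in Ala than in Thr striatum (difference -4.47 ± 0.60, adjusted p = 3.09e-05), and the difference was -3.73 without the 5 arrays with high markers of another tissue (adjusted p = 0.0036). The liver markers there had mean signals from 4.86 to 5.25 on the Ala and from 6.19 to 8.68 on the Thr arrays, and their part in that difference was not tested. Of 4 other light chains that pair with Slc3a2, 4 were tested, 2 differed between regions and 0 between genotypes in the average, against the same shares. Slc7a11, the cystine transporter chain, had 12.06 ± 0.72 in amygdala, 11.49 ± 0.31 in prefrontal cortex, 10.88 ± 0.16 in hippocampus, 9.97 ± 0.32 in striatum and 9.78 ± 0.29 in cerebellum. Its lowest means thus lay in cerebellum and striatum, where Slc7a5 and Slc3a2 had their highest and their lowest means. The lead of cerebellum over the next region was not called for Slc7a5 or Slc3a2 (adjusted p = 0.249 and 0.562). Of 15 genes of the amino acid response driven by Atf4, a program known to include Slc7a5 and Slc3a2, 13 were tested, all 13 differed between regions, against 68.8% of all genes, and 0 between genotypes in the average. Asns of that list differed by 0.21 ± 0.11 and Ddit3 by -0.36 ± 0.09 in the average (adjusted p = 0.943 and 0.423). Against striatum, 10 of the 13 were lower in amygdala (4 called, against 18.7% of all genes). Slc7a5, Slc7a8 and Slc3a2 were higher in amygdala in that comparison. So were the rest of the 13: Asns (14.72 against 14.37), Atf3 (7.41 against 6.94) and, by a small margin, Aldh1l2 (4.197 against 4.195, both under the negative control range). Among the 10 lower ones, the means of Trib3, Atf5 and Mthfd2 in amygdala and striatum also lay in or under that range. The other regions are not described here for this list, and its part in the levels of the members was not tested.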

How the data were processed

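RNA of 40 samples was labelled with biotin for Affymetrix arrays, per the labels. The authors deposited log2 signals made with RMA, per the submitters' processing notes. Its version and the genome build are not given in the sources used here. Values ran from 1.53 to 19.93 and are taken as log2, the scale RMA gives. Of 28846 rows, 19572 carried 1 platform gene symbol. Of 19505 genes, 14978 with a signal above the 30th percentile of all values on at least 4 arrays were tested. One linear model of 10 group means was run in limma (version 3.58.1, R 4.3.3; lmFit, eBayes with a trend), and two-sided p-values were adjusted by Benjamini-Hochberg over all tested genes of a comparison, with 0.05 as threshold. Relations between deviations were tested with 100000 permutations of arrays within groups, two-sided. Named genes were the members, up to 4 genes of each pathway list by smallest p, and for each member the 3 genes with the highest r. The members and lists were chosen with earlier results of these data known. The steps were tested on simulated data. Alternatives covered scaling, filter, rows, spread, array weights, threshold and arrays left out. The number of arrays limits the precision.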

Additional observations from a re-analysis of the deposited data

Results flagged for a closer look

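Within a group of 4 arrays, 6 of the 70 groups of a member had 1 array far from the others by Dixon's criterion, and chance gives about 1 in 20. Thr striatum 37 was low for Slc7a5 (8.39, against 9.92 to 10.16 on the other 3 arrays) and for Slc7a8 (11.80, against 13.21 to 13.47). Ala prefrontal cortex 28 was high for Slc7a5 (11.50, against 10.70 to 10.76) and for Slc7a8 (14.78, against 13.40 to 13.53). Slc16a10 was high on Ala striatum 33 (4.37, against 3.07 to 3.25), under the range of the negative controls. Slc3a2 was low on Thr prefrontal cortex 30 (14.34, against 14.74 to 14.81). Over all tested genes, the standard deviation of the deviations was 0.431 on Thr striatum 37 and 0.301 on Ala prefrontal cortex 28, against a median of 0.300 over the 40 arrays and a highest value of 0.475.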

How the results depend on the processing

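No paired analysis was possible because the labels number the arrays from 1 to 40 and no number occurs in 2 groups. The count of members called between genotypes was 0 under each alternative run. The count called by the F-test over regions, Slc16a10 included, was 7, except 6 at an adjusted p under 0.01 and without the 5 arrays with high markers of another tissue, where Slco1a4 was lost. With a log2 difference of at least 1 as well, 15 of 70 pairs of regions were called. Without the 2 farthest arrays, 0 of the 84 relations were called, and the 3 called with all arrays had an adjusted p between 0.055 and 0.0907. Of the alternatives, 2 were chosen after seeing the data: without the 5 arrays, Slc7a5 in amygdala turned to -0.0495, and once the choroid plexus score entered the model, Slco1c1 turned to 0.0805 in cerebellum and -0.0285 in prefrontal cortex. Leaving out 1 array at a time turned the sign of 12 differences within regions and of 1 average, none of them called. The ranges were -0.032 to 0.248 for Slc3a2 and -0.0495 to 0.295 for Slc7a5 in amygdala, -0.242 to 0.0106 for Slco1a4 in cerebellum, and in hippocampus -0.0805 to 0.212 for Slc16a10, -0.0281 to 0.159 for Slc7a5 and -0.0543 to 0.310 for Slco1c1. In prefrontal cortex they were -0.140 to 0.0154 for Slc3a2, -0.117 to 0.344 for Slc7a8 and -0.0504 to 0.396 for Slco1a4. In striatum they were -0.129 to 0.409 for Crym, -0.0396 to 0.552 for Slc7a5 and -0.0568 to 0.497 for Slc7a8, and for the average of Slc16a10 they were -0.0102 to 0.0979. The arrays that ended calls between regions are named beside those results, except arrays outside the regions compared, which are given as counts for Slc7a5 and Slc16a10. With 4 arrays per group, the 95% intervals of the regional genotype differences reached from 0.35 to 1.03 to either side before adjustment, and the signal of Slc16a10 was limited by background.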
